A study of Mus musculus with 16 samples.

Results

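Melanophilin, encoded by Mlph, and the Rab27 vesicle transport genes around it were examined in mice with a conditional deletion of trefoil factor 2 (Tff2) in the pancreas. The 6 genes, Mlph, Rab27a, Rab27b, Myo5a, Myrip and Exph5, were found by symbol among the 24091 genes of each count table, and all 6 passed the low-count filter in both tissues. Mlph was chosen because it was lower in KO samples of both tissues in an earlier analysis of these data, so its KO and control values are given as a description with no test. The other 5 genes, its Rab27 and myosin partners, were examined to see whether they followed. Knockout (KO) mice carried Pdx1:Cre with both Tff2 alleles floxed (Pdx1:Cre;Tff2fl/fl), and controls carried the floxed alleles without Cre (Tff2fl/fl). The floxed alleles were thus common to both groups, and no group carried Pdx1:Cre without floxed alleles, so effects of Cre and of Tff2 loss cannot be told apart. The Pdx1 promoter drives Cre in the epithelium of the developing pancreas, while stromal, neural and blood cells keep an intact gene. Polyadenylated RNA was sequenced from whole pancreata at embryonic day 16.5 (E16.5), 3 KO and 3 control, and from islets of male mice aged 60 weeks, 5 KO and 5 control, isolated with collagenase and picked by hand from single mice.

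Rab27 proteins are small GTPases on the surface of secretory granules and melanosomes. In their GTP-bound form they recruit effectors that tie the vesicle to a motor, to actin or to the plasma membrane. Melanophilin is the effector that bridges Rab27a to myosin Va, encoded by Myo5a, and mice that lack 1 of these 3 proteins have diluted coat colour because melanosomes are not held at the tips of melanocytes. In islet beta cells Rab27a and its effectors take part in the docking and release of insulin granules, and in acinar cells Rab27b acts in the release of zymogen granules. Myrip links Rab27 to myosin VIIa and myosin Va, and Exph5 encodes exophilin 5, another Rab27 effector.

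The sequences before the start sites of the protein trio Mlph, Rab27a and Myo5a are shown because these genes moved in different directions in KO pancreata. Each run holds the 250 bases upstream of a start listed by RefSeq on GRCm38.p6, plus strand, written 5′ to 3′, at chr1:90914850-90915099 for Mlph, chr9:73044560-73044809 and chr9:73063898-73064147 for the first and the second listed start of Rab27a, and chr9:75070956-75071205 for Myo5a. Capitals mark the E-box CACGTG, a palindrome bound by several basic helix-loop-helix factors.
Mlph: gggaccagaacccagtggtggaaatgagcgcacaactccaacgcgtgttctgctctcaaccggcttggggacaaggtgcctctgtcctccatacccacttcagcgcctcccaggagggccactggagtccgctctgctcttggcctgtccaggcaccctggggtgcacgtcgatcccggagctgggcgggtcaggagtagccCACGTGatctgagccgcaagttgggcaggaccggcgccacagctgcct
Rab27a, first start: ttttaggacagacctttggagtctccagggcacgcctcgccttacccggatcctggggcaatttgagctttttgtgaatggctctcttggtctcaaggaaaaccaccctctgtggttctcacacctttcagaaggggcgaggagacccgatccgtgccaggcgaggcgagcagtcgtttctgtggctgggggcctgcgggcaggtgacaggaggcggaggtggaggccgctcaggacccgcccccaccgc
Rab27a, second start: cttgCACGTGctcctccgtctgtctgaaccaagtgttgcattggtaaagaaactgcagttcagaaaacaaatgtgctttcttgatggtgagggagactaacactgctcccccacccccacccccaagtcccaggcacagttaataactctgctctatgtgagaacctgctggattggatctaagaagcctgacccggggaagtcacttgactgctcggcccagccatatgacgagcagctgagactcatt
Myo5a: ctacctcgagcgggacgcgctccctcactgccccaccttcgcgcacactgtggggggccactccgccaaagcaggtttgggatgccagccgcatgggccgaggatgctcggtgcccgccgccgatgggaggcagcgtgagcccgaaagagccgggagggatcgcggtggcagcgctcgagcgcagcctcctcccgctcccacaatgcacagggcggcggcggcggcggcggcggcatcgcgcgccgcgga
The E-box began 48 bases before the Mlph start (position -48) and at position -246 from the second Rab27a start. It was found in neither the first Rab27a window nor those of Myo5a, Myrip and Exph5. Of 32851 windows of equal length over all listed starts, 1978 (6.02%) held it. The GC box GGGCGG, searched on both strands, occurred in 32.7% of windows and was present before Mlph, the first Rab27a start, Myo5a, Myrip and Exph5. These matches describe letters in the windows, and binding was not measured. No window of Rab27b was used here.

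In the deposited coordinates (mm10) Mlph lay on chromosome 1 from 90915100 to 90951142 on the plus strand. Rab27a (73044810 to 73097614), Myo5a (75071206 to 75223687), Myrip (120304073 to 120474834) and Exph5 (53301670 to 53381158) lay on the plus strand of chromosome 9. Rab27b lay on the minus strand of chromosome 18 from 69979131 to 70141605. In GENCODE M21, the gene annotation used for overlaps, no other gene overlapped Mlph or Exph5. Processed pseudogenes overlapped the other 4, and 1 of these, Gm27186, lay on the same strand as an exon of Rab27a, so the division of those reads is uncertain.

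Total counts ranged from 14866194 to 22699934 in pancreata and from 22595400 to 32385042 in islets, and levels below are CPM, counts relative to a library size scaled by the TMM method. Tff2 had 51, 147 and 27 reads in KO pancreata, against 848, 406 and 611 in control pancreata. In islets Tff2 had 0, 12, 16, 8 and 2 reads in KO libraries, against 25, 69, 30, 135 and 62 in controls, so no library went against its genotype label. KO 18 was the 1 pancreas with Ddx3y reads of a male level (1982 reads, against at most 3 in the other pancreata), and KO 01 stood apart in liver markers, which summed to 1282 CPM there, to 102 and 171 CPM in KO 18 and KO 19, and to 69.3 to 209 CPM in controls. Islet endocrine markers summed to 162426 to 187037 CPM in KO islets and to 166294 to 199206 CPM in control islets, and acinar markers to 30448 to 60237 CPM in KO pancreata and 64198 to 78029 CPM in control pancreata, so each labelled tissue had its defining markers. Of 6 melanocyte markers, Tyr and Tyrp1 were at 0 in all islet libraries, and Tyr, Tyrp1 and Mlana had at most 1 read in any pancreas, while Mitf, Dct and Pmel had reads in both tissues. The 6 summed to 12.2 to 13.6 CPM in KO and 14.6 to 15.0 CPM in control pancreata, and to 19.8 to 23.5 CPM in KO and 18.5 to 21.5 CPM in control islets.

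Rab27a was the most abundant of the 6 genes per length in both tissues. Levels of different genes were compared as CPM per kb of the deposited gene length. In pancreata Rab27a averaged 14.4 ± 0.481 CPM per kb in KO and 18.1 ± 0.222 in controls (SD, n = 3 each), and in islets 95.3 ± 3.33 in KO and 95.4 ± 3.75 in controls (SD, n = 5 each). In control pancreata the order went on with Rab27b, Myo5a, Exph5, Mlph and Myrip, and no neighbours in this order overlapped. In KO pancreata the order of means was the same, but the ranges of Rab27b and Myo5a overlapped, as did those of Mlph and Myrip. Myo5a was 8.22 ± 1.93 CPM per kb in KO pancreata and 4.80 ± 0.132 in controls, beside Rab27b at 8.39 ± 1.25 in KO and 8.67 ± 0.410 in controls.

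In islets Exph5 and Myo5a followed Rab27a at almost equal levels, and Rab27b was the lowest. Exph5 averaged 15.9 ± 1.29 CPM per kb in KO and 16.5 ± 1.65 in control islets, and Myo5a 15.8 ± 1.10 and 16.4 ± 1.32, with overlapping ranges. Mlph averaged 2.19 ± 0.936 CPM per kb in KO islets and 6.42 ± 0.664 in control islets, while Myrip averaged 2.82 ± 0.322 and 2.84 ± 0.626. Mlph thus stood above Myrip in control islets, whereas in KO islets its range overlapped that of Myrip and its mean was the lower. The balance of the Rab27 isoforms differed by tissue. Rab27b made up 36.6% ± 4.13 of the summed Rab27a and Rab27b level per kb in KO pancreata and 32.4% ± 1.30 in control pancreata (SD, n = 3 each). In islets it made up 0.629% ± 0.182 in KO and 0.613% ± 0.0747 in controls (SD, n = 5 each).

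**Figure D1:**
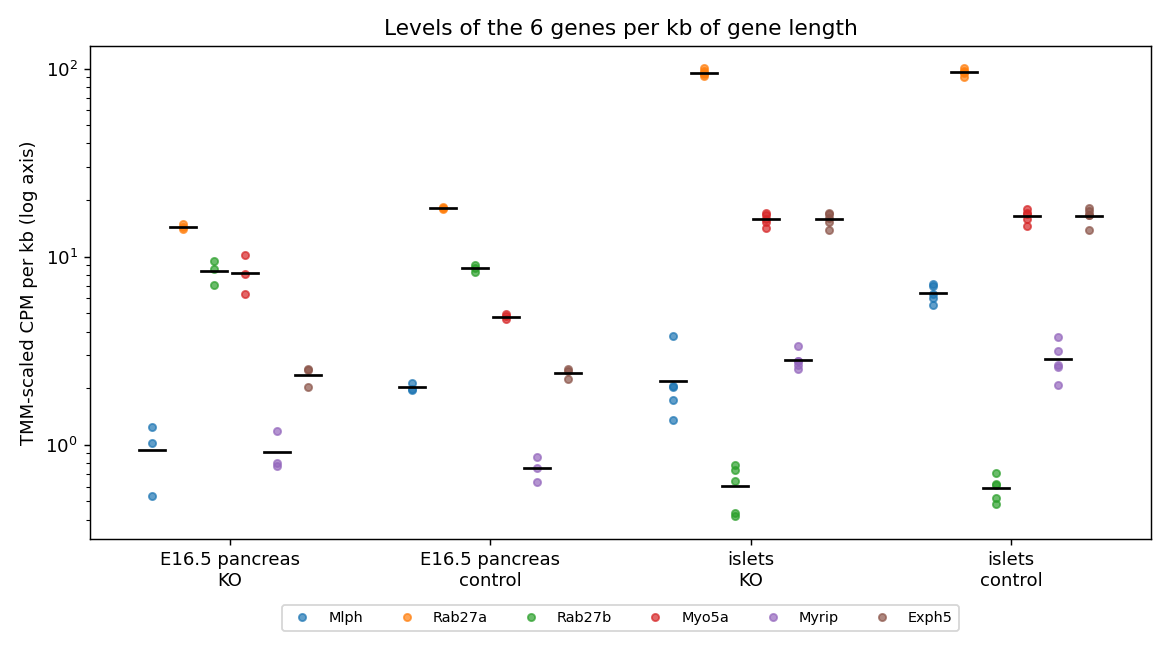
TMM-scaled CPM per kb of gene length on a log axis for the 6 genes in each group, 1 point per library and a black line at the mean. Rab27a is highest in every group, Rab27b sits near 8 CPM per kb in pancreata but under 1 in islets, and Mlph is lower in the KO group of each tissue.

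All 6 genes differed between control islets and control pancreata. The background was high, with 85.9% of the 15823 genes tested called by edgeR in either direction (42.4% higher and 43.6% lower in islets), so the count for the 6 genes is near that of all genes. Exph5 had a log2 fold change of 3.04 (SE 0.105) and Rab27a one of 2.66 (SE 0.0517), both higher in islets. Myrip, Myo5a and Mlph were higher in islets by 2.19, 2.04 and 1.93 on the log2 scale. Rab27b was lower in islets by a log2 fold change of -3.62 (SE 0.161). The edgeR adjusted p ranged from 5.33e-17 for Rab27a to 3.11e-06 for Mlph. Tissue, age and the separate tables cannot be told apart in this contrast.

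Mlph was lower in every KO pancreas than in every control pancreas. It had 2.38, 5.55 and 4.58 CPM in KO pancreata 01, 18 and 19 (45, 82 and 77 reads), against 8.71, 9.47 and 8.86 CPM in control pancreata 02, 08 and 13 (191, 169 and 154 reads). The means were 4.17 ± 1.62 CPM in KO and 9.01 ± 0.399 CPM in controls (SD, n = 3 each), a log2 fold change of -1.12 or a ratio of 0.459. Over all genes tested in pancreata, 16.1% had every KO value below every control value. KO 01 was the lowest of the 6 libraries, and without it the log2 fold change was -0.83. In bulk tissue, fewer cells of a type and less RNA per cell cannot be told apart.

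In islets Mlph had 9.17, 16.9, 7.74, 6.04 and 9.09 CPM in KO islets 055, 122, 803, 812 and 845, against 24.8, 27.0, 28.3, 31.2 and 32.0 CPM in control islets 052, 826, 829, 857 and 858. The highest KO value, in KO 122, remained below the lowest control value, as was so for 0.774% of all genes tested in islets. The means were 9.79 ± 4.18 CPM in KO and 28.7 ± 2.97 CPM in controls (SD, n = 5 each), a log2 fold change of -1.55 or a ratio of 0.342. Without KO 122 the log2 fold change was -1.84. Per 100 units of Rab27a per kb, Mlph stood at 2.29 ± 0.946 in KO islets and 6.74 ± 0.759 in control islets, and at 6.52 ± 2.70 in KO pancreata and 11.1 ± 0.400 in control pancreata. The islet log2 fold change minus that in pancreata was -0.40.

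Of 6 other genes within 250 kb of Mlph on chromosome 1, 5 were tested in pancreata and 4 in islets, and 0 passed in either tissue. The shares called by edgeR over all genes were 6.43% in pancreata and 0.155% in islets, so counts of 0 are near the background. The nearest on the left, Col6a3, a collagen VI gene, had a log2 fold change of 0.20 in pancreata (edgeR adjusted p = 0.340) and -0.20 in islets (adjusted p = 0.861). The nearest on the right, Prlh, which encodes prolactin releasing hormone, had 0 reads in pancreata and, in islets, 0 reads over the KO libraries and 4 over the controls. Rab17, beyond Prlh, was at -0.42 in pancreata (edgeR adjusted p = 0.293) and -0.22 in islets (0.939). Lrrfip1 was at -0.05 and -0.16, Ramp1 at -0.11 and -0.16, and Rbm44 at -0.37 in pancreata. All tested neighbours were thus below 0 in islets, and all but Col6a3 in pancreata, without a call.

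**Figure D2:**
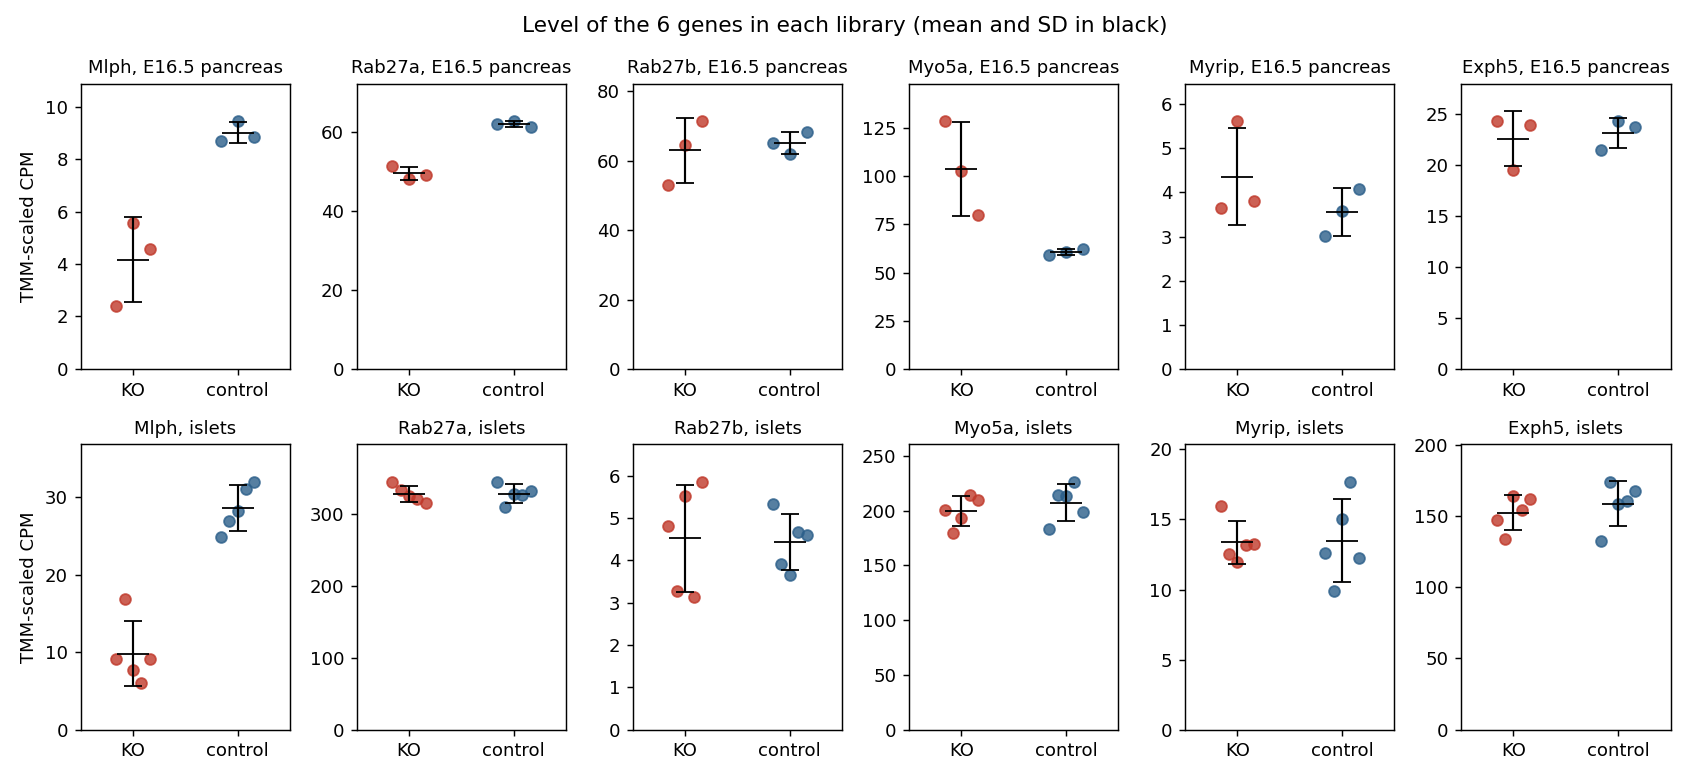
TMM-scaled CPM of each of the 6 genes in every library, E16.5 pancreata in the upper row and islets in the lower row, KO left of control, with the mean and SD in black. Mlph is lower in all KO libraries of both tissues, Rab27a is lower and Myo5a higher in KO pancreata, and the 5 partners overlap in islets.

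Of the 5 partners in pancreata, Rab27a fell, Myo5a rose and 3 did not pass, so they did not move with Mlph as a group. By the edgeR test 6.43% of the 14914 genes tested were called in either direction (2.68% lower and 3.75% higher), and 31.1% of genes had groups that did not overlap (16.1% with KO lower and 15.0% with KO higher). The 5 partners had a median log2 fold change of -0.03, against -0.00 over all genes tested.

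Rab27a, the GTPase that melanophilin binds, had 51.4, 48.2 and 49.2 CPM in KO pancreata, against 62.2, 62.9 and 61.4 CPM in control pancreata. All KO values were below all control values, with little spread in either group. The log2 fold change was -0.32 (SE 0.055, edgeR adjusted p = 0.0239), beside -1.12 for Mlph. This call was sensitive to scaling, and it was lost when a control was left out. When libraries were scaled to 20 pan-epithelial genes, a scaling that shifted the median over all genes to 0.40, Rab27a was at 0.08 (adjusted p = 0.398), and by library totals at -0.25 (adjusted p = 0.0736). With control 02, 08 or 13 left out, where almost no gene was called, it did not pass (adjusted p = 0.138, 0.108 and 0.0733). Its log2 fold change was then between -0.34 and -0.32.

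Pan-epithelial markers were lower in the KO pancreata, where they summed to 2477 to 2574 CPM, against 3087 to 3562 CPM in controls. Of the 20, 13 fell and 0 rose, while 2.68% of all genes tested fell and 3.75% rose. Islet endocrine markers summed to 1096 to 1780 CPM in KO pancreata and 2651 to 3470 CPM in controls, with 8 of 10 lower. Duct markers summed to 752 to 912 CPM in KO and 1180 to 1208 CPM in controls, with 3 of 6 lower. Acinar markers, of which 0 of 10 passed, summed to 30448, 60237 and 52181 CPM in KO 01, 18 and 19. Control pancreata had 64198 to 78029 CPM of acinar markers. Over the KO pancreata this was the order of Mlph. Duct, melanocyte, mast cell and smooth muscle markers had this order too, and the other marker lists did not. Smooth muscle markers were higher in KO pancreata, at 264, 390 and 340 CPM in KO 01, 18 and 19, against 166 to 204 CPM in controls. The part of all these markers in the lower Mlph and Rab27a was not tested. Under the pan-epithelial scaling Mlph was at -0.72.

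Myo5a, the myosin Va motor that carries the complex along actin, went the other way. It had 129, 103 and 79.9 CPM in KO pancreata 01, 18 and 19, against 58.9, 60.7 and 62.2 CPM in controls. All KO values were above all control values, and the KO libraries were spread widely while the controls were not. The means were 104 ± 24.4 CPM in KO and 60.6 ± 1.67 CPM in controls (SD, n = 3 each), and the log2 difference was 0.78 (SE 0.151) at an edgeR adjusted p of 0.0300. Without KO 01 it was 0.60 (adjusted p = 0.0124). With control 02, 08 or 13 left out, where almost no gene was called, it no longer passed (adjusted p = 0.152, 0.119 and 0.0841). Sympathetic neuron markers had the same order over the KO pancreata. They summed to 454, 236 and 129 CPM in KO 01, 18 and 19, against 51.5 to 64.1 CPM in controls. Of these, 5 of 6 rose, against 3.75% of all genes tested. Islet endocrine markers, which were lower in KO pancreata, had this order too (1780, 1514 and 1096 CPM). Smooth muscle markers, of which 4 of 5 rose, had another order. Myosin Va is abundant in neurons, and the part of these cells in the rise of Myo5a was not tested.

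Rab27b, Myrip and Exph5 did not pass in pancreata. Rab27b had 53.0, 64.6 and 71.5 CPM in KO pancreata, against 65.1, 62.1 and 68.2 CPM in controls, a log2 fold change of -0.05 (95% interval -0.29 to 0.20, edgeR adjusted p = 0.807). Exph5 had 24.4, 19.5 and 24.0 CPM in KO pancreata and 21.5, 24.3 and 23.8 CPM in controls (-0.03, interval -0.28 to 0.21, adjusted p = 0.871). Myrip had 3.65, 5.62 and 3.80 CPM in KO pancreata and 3.01, 3.58 and 4.08 CPM in controls (0.29, interval -0.23 to 0.80, adjusted p = 0.451). The groups of all 3 overlapped. Under the pan-epithelial scaling each was above 0 and passed, at 0.35, 0.37 and 0.69 for Rab27b, Exph5 and Myrip (adjusted p = 0.0318, 0.0233 and 0.0344). Rab27b and Exph5 were then below the 0.40 by which the median over all genes had shifted, and Myrip was above it.

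In islets 0 of the 5 partners were called, and their groups overlapped. By edgeR 0.155% of the 14219 genes tested were called in either direction (0.113% higher and 0.0422% lower), 1021 genes had an unadjusted p under 0.05, and 1.55% of genes had groups without overlap (0.774% with KO lower and 0.781% with KO higher). None of the 5 was called under DESeq2, limma-voom or any of the other settings tried, and 0 had an unadjusted p under 0.05 in edgeR. Rab27a averaged 327 ± 11.4 CPM in KO and 327 ± 12.9 CPM in control islets (SD, n = 5 each). The 95% interval of its log2 fold change ran from -0.09 to 0.09, so a change of the size in pancreata lay outside it.

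Myo5a ranged from 179 to 215 CPM in KO islets and from 183 to 227 CPM in control islets, with a log2 fold change of -0.06 (interval -0.19 to 0.08). Exph5 ranged from 134 to 164 CPM in KO and from 133 to 174 CPM in control islets (-0.06, interval -0.22 to 0.10). The intervals of the less abundant genes were wider. Myrip averaged 13.4 ± 1.53 CPM in KO and 13.5 ± 2.97 CPM in controls (-0.02, interval -0.32 to 0.28). Rab27b averaged 4.52 ± 1.26 CPM in KO and 4.43 ± 0.665 CPM in controls (0.04, interval -0.37 to 0.44). The edgeR adjusted p of the 5 ranged from 0.912 to 0.999.

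**Figure D3:**
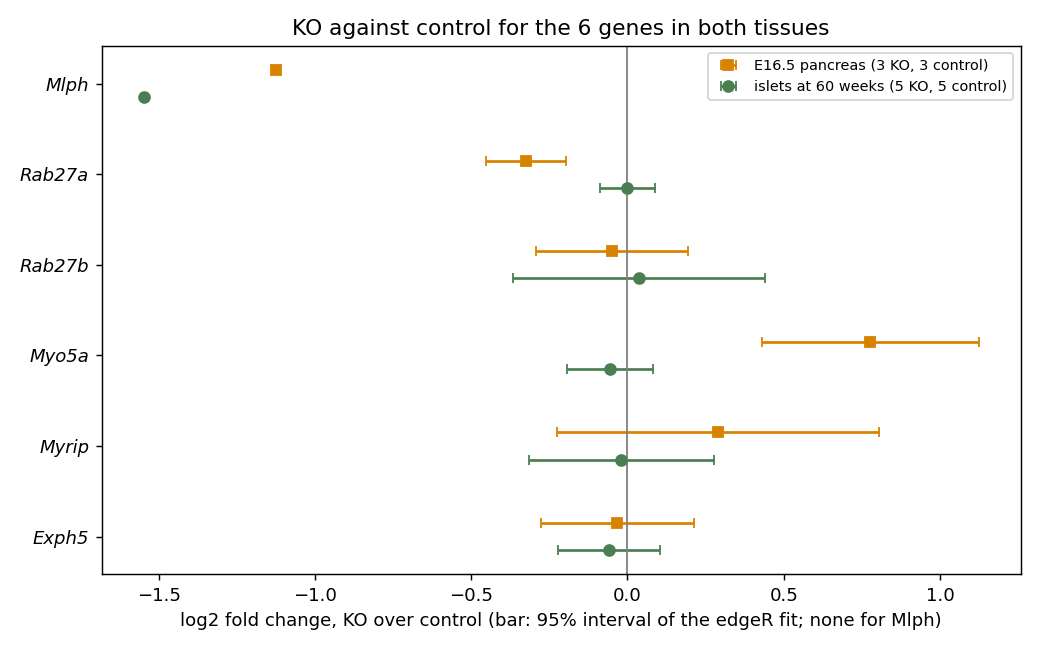
Log2 fold change of KO over control for the 6 genes with the 95% interval of the edgeR fit for the 5 partners, squares for E16.5 pancreata and circles for islets. Mlph lies at -1.12 in pancreata and -1.55 in islets, whereas Rab27a and Myo5a leave 0 in opposite directions in pancreata and lie at 0 and -0.06 in islets.

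With TMM scaling, the KO effects on Rab27a and Myo5a differed between the tissues. In the model over all 16 libraries 7.19% of 15823 genes were called for this interaction in either direction, 3.94% above 0 and 3.25% below 0. The islet effect minus the pancreas effect was 0.34 for Rab27a (SE 0.0657, edgeR adjusted p = 0.00663) and -0.82 for Myo5a (SE 0.155, adjusted p = 0.00611), and both were called under 20 alternatives. Pan-epithelial scaling, added to this model after seeing the data, put the interaction at -0.08 for Rab27a (adjusted p = 0.375) and at -1.24 for Myo5a (adjusted p = 0.000195), with the median of all genes at -0.40. The Rab27a difference was thus not called under that scaling. The interactions of Rab27b, Myrip and Exph5 did not pass, with TMM scaling and values of 0.11 (interval -0.38 to 0.60), -0.29 (-0.87 to 0.29) and -0.01 (-0.29 to 0.27) and adjusted p of 0.850, 0.592 and 0.987. Under pan-epithelial scaling Rab27b was at -0.30 (adjusted p = 0.304), and Myrip and Exph5 passed at -0.71 and -0.43 (adjusted p = 0.0389 and 0.0302).

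Among 8 other Rab27 effectors in pancreata, 2 fell, 1 rose and 5 did not pass, with a median log2 fold change of -0.35. Over all genes tested, 2.68% were called lower and 3.75% higher. Rph3al, which encodes Noc2, a Rab effector of endocrine and exocrine granules, had 34.8, 36.1 and 34.4 CPM in KO pancreata, against 51.3, 52.8 and 50.4 CPM in controls. It fell by 0.55 on the log2 scale (SE 0.0582, edgeR adjusted p = 0.0166). Sytl4, which encodes granuphilin, the effector that docks insulin granules, had 47.1, 40.0 and 39.5 CPM in KO pancreata, against 57.9, 55.4 and 67.2 CPM in controls. It fell by 0.51 (SE 0.0987, adjusted p = 0.0300). In both genes all KO values were below all control values, as was so for 16.1% of all genes tested. Under the pan-epithelial scaling neither passed, with Rph3al at -0.15 (adjusted p = 0.138) and Sytl4 at -0.11 (adjusted p = 0.461). Without control 02, 08 or 13, where almost no gene was called, neither passed. Sytl4 also did not pass by library totals (adjusted p = 0.0583) or without KO 18 (0.0547) or KO 19 (0.0615).

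Rph3a, which encodes rabphilin 3A, an effector on synaptic vesicles, rose from a low level. It had 109, 38 and 18 reads in KO pancreata 01, 18 and 19, against 6, 6 and 2 reads in controls. The log2 fold change was 3.66 (SE 0.704, edgeR adjusted p = 0.0298), and 2.85 without KO 01 (adjusted p = 0.0174). Its order over the KO pancreata was that of Myo5a and of the summed sympathetic neuron markers. Islet endocrine markers, which fell, had this order too, and the part of either list in the rise was not tested. Rab3c, a Rab of neuronal and endocrine vesicles, showed the same order, with 47.1, 24.8 and 10.8 CPM in KO pancreata 01, 18 and 19, against 5.61, 4.70 and 4.31 CPM in controls. It was the 1 gene called among 13 other secretory Rabs, which had a median of -0.00, and its log2 difference was 2.49 (SE 0.480) at an adjusted p of 0.0298, and 1.86 without KO 01 (adjusted p = 0.0111). Neither Rph3a nor Rab3c passed without control 02, 08 or 13, where almost no gene was called.

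None of the 9 genes of Rab27 activation, GTP hydrolysis and prenylation passed in pancreata, with a median of 0.03. Coro1c, the coronin 3 gene, had a log2 fold change of 0.11, and Rabggtb, a subunit of the transferase that adds the lipid anchor to Rabs, was at -0.10. None of 12 other myosins and their actin and microtubule partners passed, with a median of -0.10. Mapre1, which encodes the microtubule tip protein EB1, was at 0.17, and Dynll2, a light chain shared by dynein and myosin Va, at -0.14. Under the pan-epithelial scaling Rabggtb and Dynll2 turned to 0.30 and 0.27. In all 4 lists together, 4 of 42 genes (9.52%) were called by edgeR, against 6.43% of all genes.

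In islets 41 of these 42 genes were tested, Rph3a being too low, and 0 were called by edgeR or under any other setting tried, near the 0.155% called over all genes. Sytl4 averaged 387 ± 22.9 CPM in KO and 411 ± 27.0 CPM in control islets, a log2 fold change of -0.09 (adjusted p = 0.815). Sytl5, another synaptotagmin-like effector, was at 0.01, Madd, the exchange factor that loads Rab3 and Rab27 with GTP, at -0.05, and Chm, the Rab escort protein, at 0.03. Rab3d and Rab37, 2 Rabs of secretory granules, were at 0.08 and 0.04, Dynll2 at -0.09 and Myo6, which encodes the motor myosin VI, at 0.04. The median over the 41 genes was -0.01.

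The interaction of tissue with genotype was called for 6 of the 42 genes (14.3%, against 7.19% of all genes). The islet effect minus the pancreas effect was 0.61 for Rph3al (SE 0.0775, edgeR adjusted p = 0.000497), 0.44 for Sytl4 (adjusted p = 0.0242), 0.90 for Rab37 (adjusted p = 0.00679) and -2.56 for Rab3c (adjusted p = 0.00801). Under pan-epithelial scaling the calls of Rph3al (0.19, adjusted p = 0.0762) and Sytl4 (0.03, adjusted p = 0.893) were lost, and Rab3c was at -2.99 (adjusted p = 0.000429). The value of Rab37 under that scaling is not given here. Rab37 averaged 3.99 ± 0.994 CPM in KO and 7.23 ± 1.07 CPM in control pancreata (SD, n = 3 each), where its log2 fold change of -0.85 did not pass (edgeR adjusted p = 0.0521). Rab3b and Spire1, named after their values were seen to complete the count, were at -1.29 and -0.43 (adjusted p = 0.0309 and 0.0472).

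**Figure D4:**
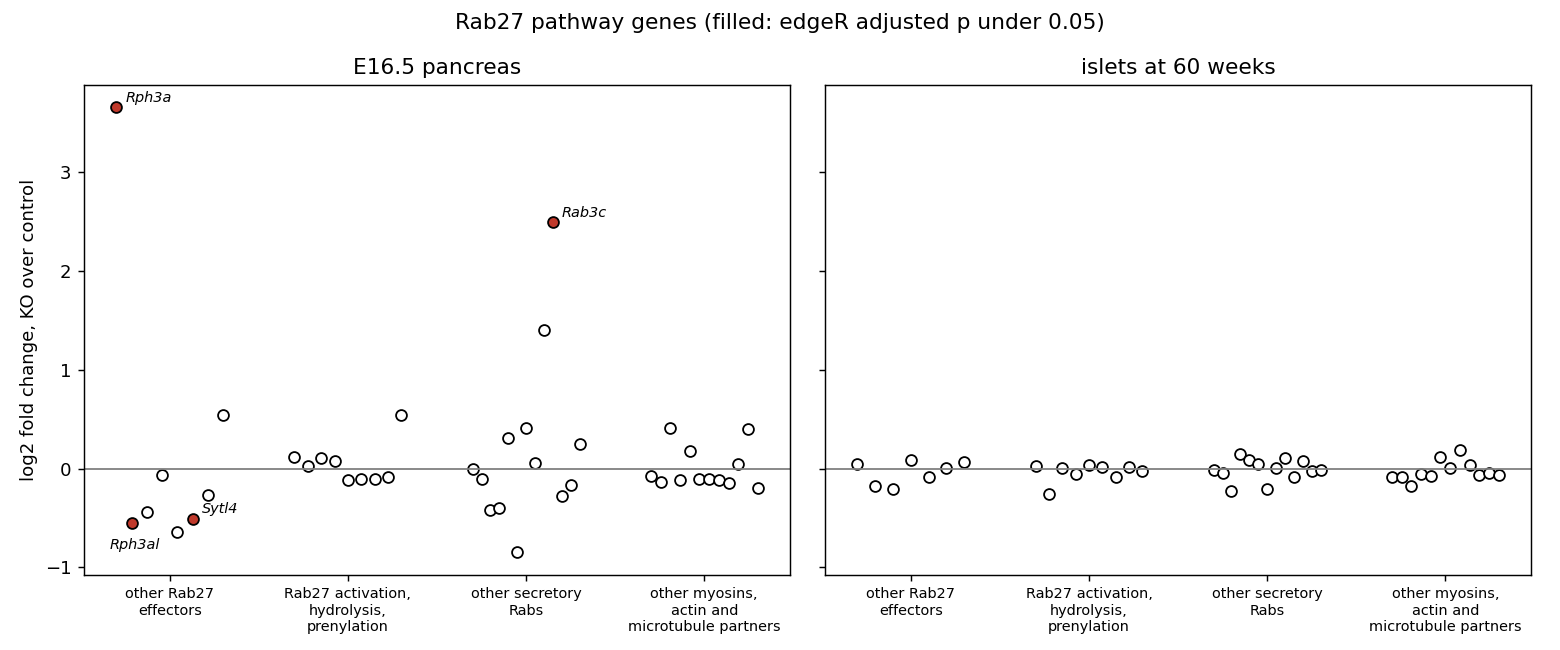
Log2 fold change of KO over control for genes of 4 lists around Rab27, E16.5 pancreata on the left and islets on the right, 1 point per gene and filled points for an edgeR adjusted p under 0.05. Rph3a and Rab3c lie far above 0 and Rph3al and Sytl4 below it in pancreata, and no point is filled in islets.

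Mlph made up a smaller share of the effectors in KO samples. Since Mlph was chosen for its lower KO level, this share is a description and not a separate result. Over 11 Rab27 effectors per kb (Mlph, Myrip, Exph5 and the 8 above), Mlph made up 2.61% ± 1.07 of the sum in KO pancreata and 4.24% ± 0.158 in control pancreata (SD, n = 3 each). In islets it made up 1.26% ± 0.529 in KO and 3.50% ± 0.402 in controls (SD, n = 5 each). The other 10 effectors summed to 35.1 ± 1.63 CPM per kb in KO pancreata and 45.5 ± 0.670 in control pancreata, and to 172 ± 4.23 in KO islets and 177 ± 5.13 in control islets. Mlph was the seventh of the 11 in the KO group and the sixth in the control group of each tissue.

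Over 16 libraries, with log2 CPM centred on the mean of each group, Pearson's r with Mlph was -0.04 for Rab27a, 0.04 for Rab27b, 0.29 for Myrip, -0.43 for Exph5 and -0.55 for Myo5a. Within the 6 pancreata r was -0.87 for Rab27a, 0.79 for Rab27b, 0.64 for Myrip, -0.58 for Exph5 and -0.70 for Myo5a. Within the 10 islet libraries it was 0.24, -0.17, 0.07, -0.34 and -0.42. Mlph ranged from 8.71 to 9.47 CPM in control pancreata and from 2.38 to 5.55 CPM in KO pancreata. The r values in pancreata thus rest mainly on the 3 KO libraries. All these r values are descriptions over libraries of both tissues that share group means and scaling. Of 12096 genes with at least 1 CPM on average in each tissue, Pbld1 (r = 0.849), Shroom1 (0.846), Pla2g1b (0.837), Tnfrsf11a (0.837) and Aox1 (0.834) had the highest r, ranks that choose the upper end of all genes, and 0 of these 5 passed the KO against control test in either tissue. The set was not stable, since none of the 5 was among the highest 5 by Spearman's rho or without islet KO 122.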

How the data were processed

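Gene expression was measured in 16 mouse libraries, unpaired because no animal number is shared between groups. Values in the tables deposited by the authors are read counts for each gene without normalization, beside gene lengths and mm10 coordinates. Tools listed in the submitters' processing notes are HTSeq 0.11.1, STAR 2.6.0, Trimmomatic and edgeR. Neither the annotation version nor the strand setting is stated, so a gene and its antisense partner cannot be told apart (Rab37 with Cd300lf, Rph3al with Gm16075, Coro1c with Gm17122, Myo6 with Gm27227).

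Differences were tested in R 4.3.3 with edgeR 4.0.16 and its quasi-likelihood test (filterByExpr, TMM scaling, Benjamini-Hochberg adjustment over all genes tested, threshold 0.05), within each tissue and, for the interaction and the tissue contrast, over all libraries. Each SE is the log2 fold change divided by the square root of F. Levels are TMM-scaled CPM, ± SD. The scripts were tested on simulated data. No pair of libraries within a group matched to sampling noise (chi-square per degree of freedom at least 4.90). Depth bounds precision through the counts given. Alternatives were other scalings and filters, DESeq2 1.42.0, limma 3.58.1 (voom with quality weights) and each replicate left out.

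The members, lists and tests were chosen with earlier results of these data known. Named genes are the 6 members, Tff2, in each list the called genes of lowest p, at most 3 (otherwise the 2 most abundant), the nearest genes to Mlph and the 5 genes with the highest r. The other genes near Mlph were named after their values were seen.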

Additional observations from a re-analysis of the deposited data

Results flagged for a closer look

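In KO islets, Mlph in KO 122 stood apart from the other 4 libraries, with 16.9 CPM against 6.04 to 9.17 CPM. The gap was 0.713 of the group's range, above the critical value of 0.71 for 5 samples. This was 1 of 42 groups examined (21 genes, KO and control islets), and chance flags about 1 in 20 groups. KO 122 also had the highest acinar marker sum of the KO islets (1749 CPM), and KO 812, lowest in Mlph, had the lowest (122 CPM). KO 055, 803 and 845 had 661, 1045 and 994 CPM, and control islets 362 to 1351 CPM. The part of acinar cells in the Mlph level was not tested.

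The KO effect differed between islets and pancreata for 6 named genes in the edgeR interaction test (islet effect minus pancreas effect on the log2 scale). The difference was 0.34 for Rab27a (adjusted p = 0.00663), -0.82 for Myo5a (0.00611), 0.61 for Rph3al (0.000497), 0.44 for Sytl4 (0.0242), -2.56 for Rab3c (0.00801) and 0.90 for Rab37 (0.00679). For each of them 5 KO and 5 control islets and 3 KO and 3 control pancreata entered the test. Tissue and age cannot be told apart in these differences. Under pan-epithelial scaling, added after seeing the data, Rab27a was at -0.08, Rph3al at 0.19 and Sytl4 at 0.03, none of them called, while Myo5a (-1.24) and Rab3c (-2.99) were called. Rab37 is not given under that scaling. Sytl4 was no longer called by library totals (0.37, adjusted p = 0.0842), without control pancreas 13 (0.36, 0.0615) or without KO pancreas 18 (0.41, 0.0504) or 19 (0.40, 0.0539).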

How the results depend on the processing

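No paired analysis was possible because the groups share no animal numbers. The count of partners called in pancreata was 2, and it was 1 by library totals, 4 under pan-epithelial scaling and 0 to 2 with 1 library left out (0 without any 1 of the controls). The 4 pathway genes called became 8 with DESeq2, 27 under pan-epithelial scaling and 0 to 5 with 1 library left out. Over all genes, edgeR called 0, 4 and 0 genes without control 02, 08 and 13, and DESeq2 called 918 higher and 632 lower. Pan-epithelial scaling called 9711 higher and 44 lower, and library totals 779 higher and 179 lower (median of all genes 0.08). In islets DESeq2 called 65 higher and 47 lower.

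In pancreata the sign turned under pan-epithelial scaling for Rab27a (0.079), Rab27b (0.35), Exph5 (0.37), Rabggtb (0.30) and Dynll2 (0.27), and by library totals for Rab27b (0.026) and Exph5 (0.047). With 1 library left out, Rab27b ranged from -0.15 to 0.071 and Exph5 from -0.088 to 0.060. Coro1c (0.51) and Mapre1 (0.58) passed under pan-epithelial scaling. In islets values near 0 turned sign for Rab27a with RLE scaling (0.0011), library totals (0.022), DESeq2 (0.0012) and a minimum of 1 CPM (0.00031), and for Myrip by library totals (0.0032). With 1 library left out, the ranges were -0.020 to 0.019 for Rab27a, -0.067 to 0.14 for Rab27b, -0.11 to 0.098 for Myrip, -0.020 to 0.065 for Sytl5 and -0.0055 to 0.046 for Chm. In the interaction Exph5 was at 0.0065 with no low-count filter and -0.10 to 0.046 with 1 library left out, and Rab27b at -0.0029 to 0.21. Under pan-epithelial scaling, chosen for the interaction after seeing the data, 3 partners and 22 pathway genes (6 with TMM) were called, and Rab27a (-0.079) and Rab27b (-0.30) turned sign. Rph3a was called for the interaction with DESeq2 (-3.30, adjusted p = 0.0181).

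Mlph ranged from -1.38 to -0.83 in pancreata and from -1.84 to -1.42 in islets with 1 library left out. The tissue contrast kept all 6 calls under all 20 alternatives. Of the 5 genes most like Mlph, 0 were among the highest 5 by Spearman's rho and 0 to 5 with 1 library left out. The causes were not tested. Mlph had 45 to 191 reads per pancreas, and Rab27b 601 reads over KO and 574 over control islets.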
